A study of Homo sapiens with 6 samples.

Results

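The 100 genes described here are the homeobox genes of the HOX clusters and of 12 other families (DLX, MSX, EMX, OTX, PAX, LHX, IRX, MEIS, PBX, NKX, POU and the sine oculis family of SIX2 to SIX6). They were selected by gene symbol in the platform annotation, not by their values, with the brightest row of each symbol over the 6 arrays standing for the gene. The rule met 111 rows of 53617 in the table, and these belong to 100 symbols of 14884 named there, 27 of them HOX genes and 73 from the other families. Of the 100, 97 are protein-coding in RefSeq; the other 3, the antisense RNA POU2F3-AS1 and the pseudogenes POU5F1P3 and POU5F1P4, met the rule by their names. A further 20 protein-coding genes that meet the rule were not analysed, as no row bears their symbol here. Among them are 10 of the 11 HOXA genes, HOXC5 and HOXC6, so the HOXA cluster is seen through HOXA2 alone. Below, a gene is called measured where a row bears its symbol. The 37519 unnamed rows may report on others.

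Transcript levels come from total RNA hybridised to Human Gene 2.0 ST arrays of Affymetrix, in which many short probes report on each transcript. The cells were Flp-In HEK293, a human embryonic kidney line in which a construct enters the genome at one prepared site. One group of 3 arrays came from cells stably overexpressing TDNC1, the other group of 3 from cells that stably express a random RNA. Both groups share the host line, the T-REx inducible system, the blasticidin and hygromycin selection and the pooling of stable clones; the inserted sequence is what the labels give as different, and no source used here states whether the inducible promoter was switched on. The replicates are called biological in the titles, with nothing on separate cultures, so p-values measure the spread between these arrays, which may be partly technical.

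Most of the genes described here encode transcription factors that bind DNA through a conserved fold, the homeodomain. The HOX genes lie in 4 clusters (HOXA, HOXB, HOXC and HOXD), and their order along a cluster mirrors the order in which they are used along the body axis, low paralogue numbers towards the head and high numbers towards the tail. PBX and MEIS proteins bind DNA together with HOX proteins. PAX2, SIX2, LHX1 and several HOX genes are known for their part in the development of the kidney, and DLX, MSX and OTX genes for the head, limbs and forebrain.

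The arrays as a whole set the scale for what follows. The long noncoding RNA LOC646736 stood at 9.71, 9.85 and 9.65 in TDNC1 replicates 1, 2 and 3, against 3.56, 3.56 and 3.90 in the control replicates, and was the 1 row called over the whole table (limma, adjusted p = 1.829e-05); no row bears the name TDNC1 here. Array medians ran from 5.16 to 5.22, and the median log2 change over all rows was -0.0123. The precision is limited by the number of arrays. TDNC1 replicate 3 received the lowest array weight of the 6 in limma (0.502, against 1.04 and 1.63 for TDNC1 replicates 1 and 2 and 1.24, 1.22 and 0.781 for the control arrays), so the main counts are also given without it. Among genes used as controls, GAPDH had a log2 change of 0.01, HPRT1 of 0.14 and TBP, the TATA-binding protein gene, of -0.28.

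No homeobox gene was called. With all 6 arrays, 0 of 100 members had a Benjamini-Hochberg adjusted p under 0.05 over all rows in limma (background 0.00187% of rows and 0.00672% of symbols), and the smallest adjusted p among them was 0.631. At an unadjusted limma p under 0.05, 2 members were lower in TDNC1 (HOXA2 and HOXD13; background 3.96% of all rows and 2.56% of symbols) and 3 were higher (HOXB4, PAX2 and POU3F3; background 3.74% of rows and 4.59% of symbols). The TDNC1 and control arrays did not overlap for 7 members that were lower (background 6.7% of rows and 6.36% of symbols) and 9 that were higher (background 6.48% of rows and 8.95% of symbols). None of these 4 shares of the 100 members stands far from that of all rows. The median log2 change was -0.09 over the 27 HOX genes and 0.00191 over the 73 other members. Levels and changes below are on the log2 scale of the deposited values, and every change is TDNC1 minus control.

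Within the HOXB cluster the 10 measured genes did not share one pattern. HOXB2, a gene used in the hindbrain, stood at 8.11, 8.13 and 8.85 in the TDNC1 arrays, against 8.79, 8.72 and 8.98 in the control arrays. HOXB5, a gene of the neck and thorax level, stood at 6.84, 6.78 and 7.66 in the TDNC1 arrays, against 7.37, 7.71 and 7.78 in the control arrays, and HOXB6 at 7.82, 7.64 and 8.32 in the TDNC1 arrays, against 8.13, 8.29 and 8.33 in the control arrays. In all 3 genes TDNC1 replicates 1 and 2 lay below every control array, while TDNC1 replicate 3 lay inside the control range. The log2 change over all arrays was -0.47 (SE 0.21, 95% interval -0.96 to 0.02) for HOXB2, -0.53 (SE 0.25, 95% interval -1.11 to 0.05) for HOXB5 and -0.33 (SE 0.18, 95% interval -0.75 to 0.10) for HOXB6, and none passed limma's test (adjusted p = 0.65, 0.655 and 0.687). Without TDNC1 replicate 3 the changes were -0.71 (SE 0.11), -0.81 (SE 0.15) and -0.52 (SE 0.11), still short of the threshold (limma, adjusted p = 0.105, 0.117 and 0.153). As TDNC1 replicate 3 was the highest of its group in all 3 genes, leaving it out had to move the changes further from 0.

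HOXB4, known for its effect on blood stem cell expansion, had higher values in TDNC1. It stood at 6.62, 6.71 and 6.79 in the TDNC1 arrays, against 6.23, 6.45 and 6.39 in the control arrays, so that every TDNC1 array lay above every control array. Its log2 change was 0.35 (SE 0.10, 95% interval 0.11 to 0.59), with the smallest unadjusted p of any member (limma, unadjusted p = 0.0104, adjusted p = 0.631), and 0.31 without TDNC1 replicate 3. HOXB3, its neighbour, stood at 6.88, 7.09 and 7.52 in the TDNC1 arrays, against 7.21, 7.43 and 7.49 in the control arrays, a change of -0.21 (SE 0.17, 95% interval -0.62 to 0.20), and -0.39 without TDNC1 replicate 3. RefSeq transcripts of HOXB3 span HOXB4, so the rows of these 2 genes may not be independent of each other's transcripts. HOXB9 stood at 9.82, 9.73 and 10.27 in the TDNC1 arrays, against 10.01, 9.98 and 10.48 in the control arrays, with replicate 3 the highest array of each group. Its change was -0.22, and -0.38 without TDNC1 replicate 3. The rest of the cluster held changes close to 0: -0.07 for HOXB7, -0.08 for HOXB8 (-0.16 without TDNC1 replicate 3), -0.10 for HOXB13 and 0.06 for HOXB1, whose sign turned without TDNC1 replicate 3 (-0.04).

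HOXA2, which patterns the second pharyngeal arch, was the member of the HOXA cluster measured here. It stood at 6.79, 6.96 and 7.35 in the TDNC1 arrays, against 7.43, 7.56 and 7.43 in the control arrays. All 3 TDNC1 arrays lay below all 3 control arrays, with TDNC1 replicate 3 only just below. Its log2 change was -0.44 (SE 0.15, 95% interval -0.80 to -0.08, limma unadjusted p = 0.0234, adjusted p = 0.631), and -0.60 without TDNC1 replicate 3. HOXD13, the gene at the tail end of the HOXD cluster and known for digit formation, stood at 9.06, 8.98 and 9.19 in the TDNC1 arrays, against 9.33, 9.40 and 9.40 in the control arrays. The groups again did not overlap, and the control arrays lay within a narrow band. Its change was -0.30 (SE 0.09, 95% interval -0.52 to -0.08, limma unadjusted p = 0.0146, adjusted p = 0.631), and -0.36 without TDNC1 replicate 3.

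The promoters of HOXA2 and HOXD13 are shown because these are the HOX genes that were lower in TDNC1 at an unadjusted p under 0.05 over all 6 arrays. They come from RefSeq (GRCh38.p14, 250 bases before to 50 after the start, 5′ to 3′ on the gene's strand). Capitals mark CCAAT (the CCAAT box), TATAAA (the TATA box), TGATNNAT (a HOX-PBX site), TGACAG (a MEIS site) and TAATTA (a homeodomain core), each searched on both strands; matches may overlap, as the 2 TATAAA matches of HOXD13 do. The first lies at chr7:27102634-27102933 on the minus strand and the second at chr2:176092471-176092770 on the plus strand.
HOXA2: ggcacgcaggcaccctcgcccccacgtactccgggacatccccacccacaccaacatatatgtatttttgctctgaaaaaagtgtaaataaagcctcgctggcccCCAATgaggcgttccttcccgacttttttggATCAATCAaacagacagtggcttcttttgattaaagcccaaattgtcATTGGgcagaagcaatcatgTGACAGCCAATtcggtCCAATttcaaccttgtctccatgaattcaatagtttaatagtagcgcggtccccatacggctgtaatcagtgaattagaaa
HOXD13: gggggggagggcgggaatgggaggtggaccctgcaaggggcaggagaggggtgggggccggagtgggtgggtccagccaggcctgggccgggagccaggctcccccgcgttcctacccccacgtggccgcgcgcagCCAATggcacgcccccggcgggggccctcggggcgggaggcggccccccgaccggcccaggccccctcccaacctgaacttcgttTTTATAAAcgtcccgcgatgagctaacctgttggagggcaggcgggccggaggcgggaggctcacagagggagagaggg
The HOXA2 window held 4 CCAAT matches, 1 HOX-PBX match and 1 MEIS match that runs directly into a CCAAT match. The HOXD13 window held 1 CCAAT match and a TATAAA match that begins 27 bases before the start on its own strand. Among all 35116 promoters of 300 bases in the table, 34.6% held CCAAT, 11.5% TATAAA, 7.4% TGATNNAT, 15.8% TGACAG and 4.84% TAATTA. Of the 11 HOX members with a promoter there, 9 held CCAAT, 3 TGATNNAT, 2 TGACAG, 2 TAATTA and 1 TATAAA. Over the 87 promoters of the 63 members with an entry, 52.9% held CCAAT and 9.2% TATAAA. These are matches of letters and do not mark sites in use.

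In the remaining HOXD genes the groups lay close together. HOXD10 stood at 9.76, 9.68 and 9.72 in the TDNC1 arrays, against 9.70, 9.70 and 9.67 in the control arrays, a change of 0.03 (SE 0.08, 95% interval -0.16 to 0.23), which is among the tightest intervals of the HOX genes. HOXD11 stood at 8.54, 8.41 and 8.75 in the TDNC1 arrays, against 8.65, 8.72 and 8.80 in the control arrays, a change of -0.16, and -0.25 without TDNC1 replicate 3. HOXD12, the gene between HOXD11 and HOXD13, had a change of 0.15 with overlapping groups. HOXD9 stood at 6.21, 6.31 and 6.83 in the TDNC1 arrays, against 6.35, 6.39 and 6.61 in the control arrays; its change of 0.01 (SE 0.18, 95% interval -0.41 to 0.42) turned to -0.18 without TDNC1 replicate 3. The other 4 genes, HOXD1, HOXD3, HOXD4 and HOXD8, had changes from -0.09 to 0.09, and from -0.14 to 0.16 without TDNC1 replicate 3.

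Of the 7 HOXC genes, HOXC8 was the one without overlap between the groups. It stood at 7.82, 7.73 and 7.89 in the TDNC1 arrays, against 7.98, 7.95 and 8.00 in the control arrays, a log2 change of -0.16 (SE 0.09, 95% interval -0.37 to 0.05, limma adjusted p = 0.687). HOXC11 stood at 5.52, 5.87 and 5.77 in the TDNC1 arrays, against 5.44, 5.33 and 5.54 in the control arrays, a change of 0.28 (SE 0.12, 95% interval -0.0029 to 0.57), and TDNC1 replicate 1 lay below control replicate 3. HOXC4 stood at 7.26, 7.16 and 7.70 in the TDNC1 arrays, against 7.49, 7.56 and 7.74 in the control arrays. As in HOXB2 and HOXB5, TDNC1 replicates 1 and 2 of HOXC4 lay below the controls and TDNC1 replicate 3 within them, and its change was -0.23, or -0.39 without that array. HOXC9, HOXC10, HOXC12 and HOXC13 had changes of -0.12, 0.11, -0.16 and -0.03, each with an interval that includes 0, and -0.19, 0.02, -0.24 and -0.04 without TDNC1 replicate 3.

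**Figure D1:**
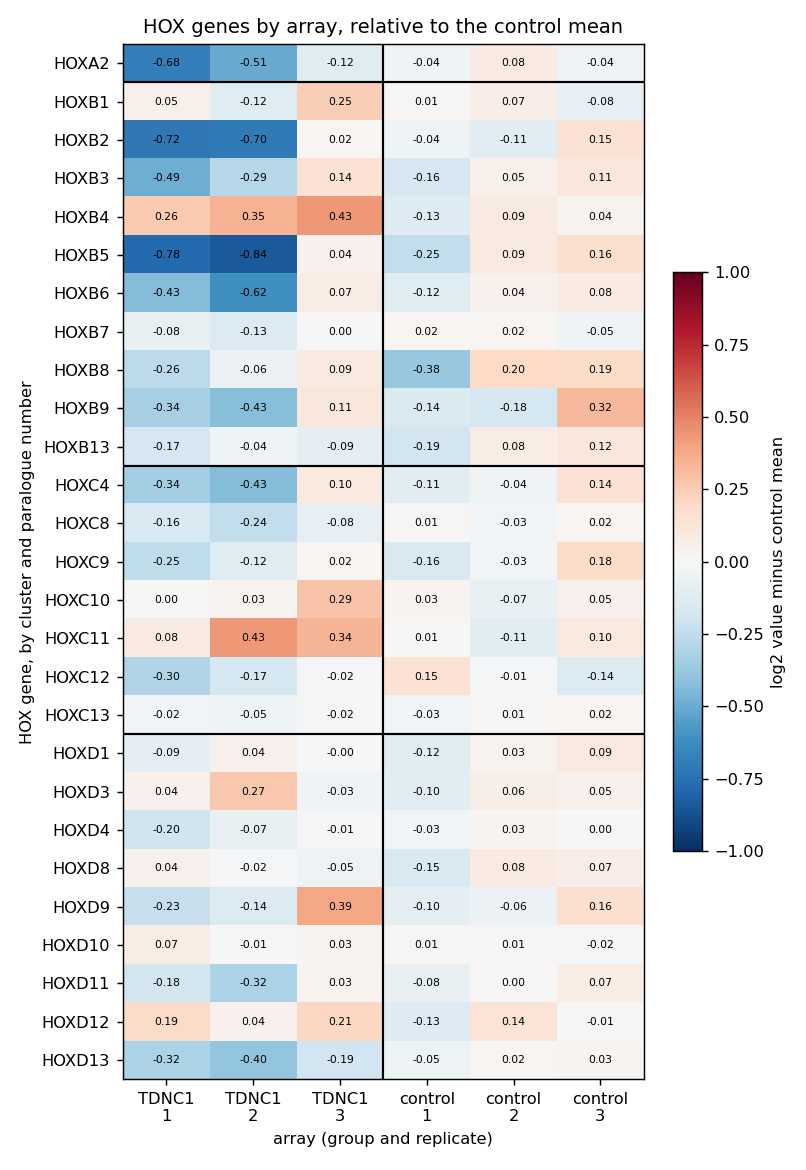
Log2 value of each of the 27 HOX genes (rows, by cluster and paralogue number) in each array (columns, TDNC1 left, control right), minus the mean of the 3 control arrays; blue is lower, red higher. TDNC1 replicates 1 and 2 are blue for HOXA2, HOXB2, HOXB5 and HOXB6, TDNC1 replicate 3 is near 0 for HOXB2, HOXB5 and HOXB6 (0.02, 0.04 and 0.07), and HOXB4 is red in all 3 TDNC1 arrays.

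Seen over the cluster genes together, TDNC1 replicate 3 stood apart from its group. It lay above both other TDNC1 arrays in 21 of 27 HOX genes (77.8%), against 37.3% of all rows and 36.3% of symbols; in the other 73 members it did so in 25. Control replicate 3 lay above both other control arrays in 16 of 27 HOX genes (59.3%), against 34.1% of all rows and 39.4% of symbols. In 13 HOX genes replicate 3 was the highest array of both groups (background 14.4% of rows and 18.2% of symbols). The exceptions in TDNC1 were HOXB13, HOXC11, HOXD1, HOXD3, HOXD8 and HOXD10. The median over the HOX genes of the log2 value minus the control mean was -0.18, -0.12 and 0.03 in the TDNC1 arrays and -0.10, 0.02 and 0.07 in the control arrays. TDNC1 replicate 1 was the lowest and control replicate 3 the highest, while TDNC1 replicate 3 lay between control replicates 2 and 3. What sets the arrays numbered 3 apart was not tested.

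Without TDNC1 replicate 3, which leaves 2 arrays against 3, 8 of 27 HOX genes (29.6%) were lower in TDNC1 at an unadjusted limma p under 0.05 (background 7.62% of rows and 7.46% of symbols), and 1, HOXB4, was higher (background 6.87% of rows and 10.1% of symbols). The 8 were HOXA2, HOXB2, HOXB3, HOXB5, HOXB6, HOXC4, HOXD11 and HOXD13. The array left out lay highest within its group in each of these 8 genes, so the count describes the other 5 arrays. Over all 100 members, 10 were lower without TDNC1 replicate 3 (background 7.62% of rows and 7.46% of symbols), and 1 or 2 without any other single array. The share of all rows was not counted for those other fits, so these counts cannot be compared. None of the 27 passed the adjusted test without TDNC1 replicate 3 (background 0.0429% of rows and 0.0202% of symbols), and the smallest adjusted p was 0.105, for HOXB2. The median log2 change over the HOX genes was then -0.16, against -0.0151 over all rows. With both arrays numbered 3 left out, 7 of 27 were lower (background 8.09% of rows and 6.58% of symbols), HOXC12 taking the place of HOXB3 and HOXD11, and 1, HOXB4, was higher (background 6.9% of rows and 9.66% of symbols). Without TDNC1 replicate 3 the groups did not overlap for 14 of 27 HOX genes that were lower (background 17.3% of rows and 19.0% of symbols) and 1 that was higher (background 15.9% of rows and 23.0% of symbols). In these cultures fewer cells that express a gene and less RNA per cell cannot be told apart.

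**Figure D2:**
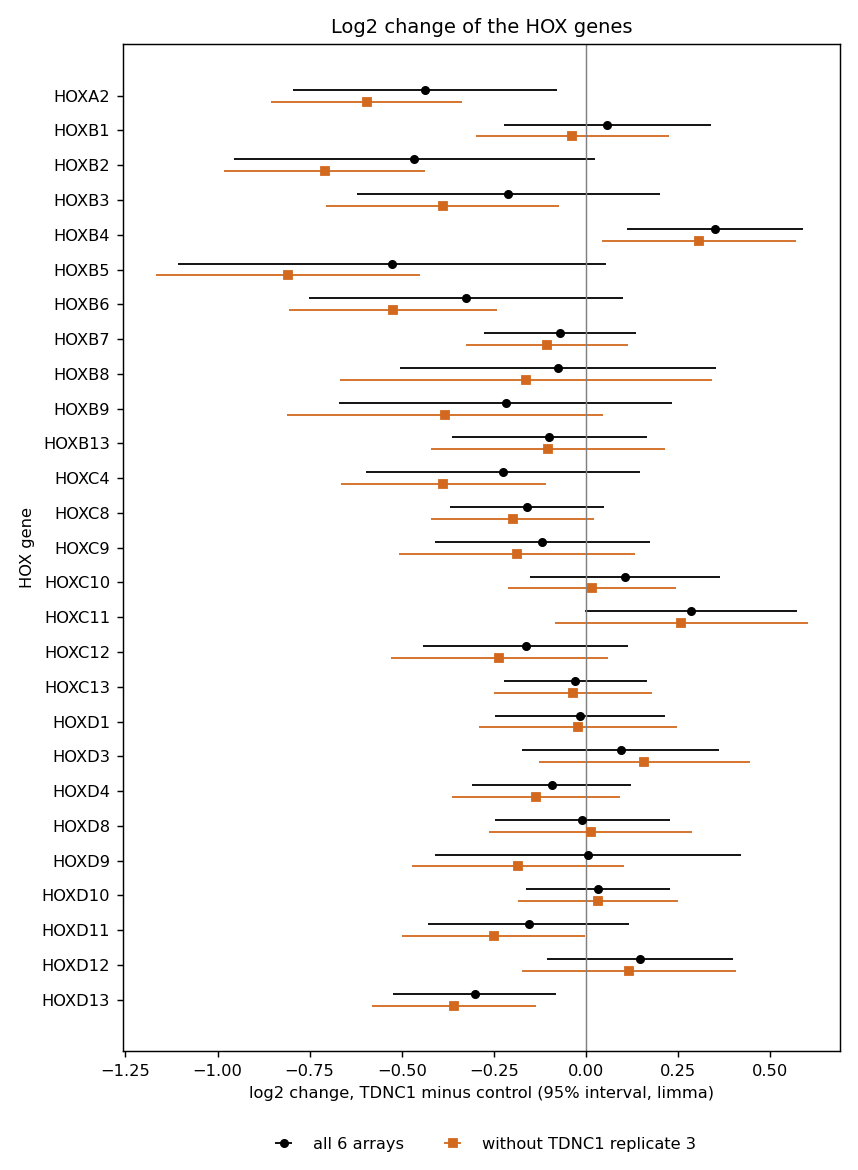
Log2 change of each HOX gene, TDNC1 minus control, with its 95% interval from limma, over all 6 arrays (black circles) and without TDNC1 replicate 3 (orange squares). The interval lies wholly below 0 in both fits for HOXA2 and HOXD13 and wholly above 0 in both for HOXB4; for HOXB2, HOXB5 and HOXB6 it includes 0 with all arrays and lies below 0 without that array.

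Outside the HOX clusters the DLX genes, which pattern the forebrain, jaw and limbs, held 2 genes in which TDNC1 replicate 3 likewise stood apart. DLX5 stood at 6.74, 6.75 and 7.61 in the TDNC1 arrays, against 7.33, 7.45 and 7.68 in the control arrays, and DLX2 at 7.82, 7.83 and 8.87 in the TDNC1 arrays, against 8.36, 8.52 and 8.80 in the control arrays. In both, TDNC1 replicates 1 and 2 lay close together below every control array, and TDNC1 replicate 3 lay within the control range for DLX5 and above it for DLX2. Their log2 changes were -0.45 (SE 0.24, 95% interval -1.03 to 0.12) and -0.39 (SE 0.29, 95% interval -1.07 to 0.30) over all arrays (limma, adjusted p = 0.68 and 0.744), and -0.74 (SE 0.13) and -0.73 (SE 0.15) without TDNC1 replicate 3 (adjusted p = 0.113 and 0.135). DLX genes lie in pairs, and the partners of these did not show the same sizes. DLX6, next to DLX5, had a change of 0.10, and 0.16 without TDNC1 replicate 3. DLX1, next to DLX2, had -0.15 and -0.22. DLX3 and DLX4, the third pair, had -0.18 and -0.04 over all arrays, and -0.37 and -0.15 without TDNC1 replicate 3. In 5 of the 6 DLX genes replicate 3 was the highest array of both groups.

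The DLX2 promoter is printed beside these values as the one start of the pair DLX2 and DLX5 that the RefSeq table holds (GRCh38.p14, chr2:172102851-172103150, minus strand, capitals as above).
DLX2: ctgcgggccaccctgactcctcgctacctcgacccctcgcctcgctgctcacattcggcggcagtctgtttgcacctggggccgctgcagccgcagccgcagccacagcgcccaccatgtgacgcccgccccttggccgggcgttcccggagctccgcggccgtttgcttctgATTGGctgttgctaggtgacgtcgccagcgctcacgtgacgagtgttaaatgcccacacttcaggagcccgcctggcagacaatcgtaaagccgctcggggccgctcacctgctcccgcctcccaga
It held 1 CCAAT match, on the opposite strand, and none of the other 4 motifs. MSX2, a target of bone morphogenetic proteins in the developing limb and skull, stood at 6.31, 6.61 and 7.04 in the TDNC1 arrays, against 6.87, 6.66 and 7.17 in the control arrays, a change of -0.25 (SE 0.21, 95% interval -0.74 to 0.25), and -0.44 without TDNC1 replicate 3. Its partner MSX1 had -0.07 and -0.11. Both MSX genes also had their highest value of each group in replicate 3.

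PAX2 and POU3F3, both known in the developing kidney, were the members outside the HOX clusters with an unadjusted p under 0.05 over all arrays. PAX2 stood at 6.49, 6.26 and 6.22 in the TDNC1 arrays, against 5.87, 5.78 and 6.09 in the control arrays, a log2 change of 0.41 (SE 0.12, 95% interval 0.12 to 0.70, limma unadjusted p = 0.013, adjusted p = 0.631). POU3F3, a brain and nephron POU factor, stood at 7.04, 7.21 and 7.12 in the TDNC1 arrays, against 6.68, 6.87 and 6.85 in the control arrays, a change of 0.33 (SE 0.10, 95% interval 0.09 to 0.56, limma unadjusted p = 0.0136, adjusted p = 0.631). Every TDNC1 array lay above every control array in both genes, and the changes without TDNC1 replicate 3 were 0.46 and 0.33. Unlike the values of HOXB5 and DLX5, these 2 moved little when that array was left out. The POU3F3 promoter is shown for this reason (GRCh38.p14, chr2:104853865-104854164, plus strand, capitals as above).
POU3F3: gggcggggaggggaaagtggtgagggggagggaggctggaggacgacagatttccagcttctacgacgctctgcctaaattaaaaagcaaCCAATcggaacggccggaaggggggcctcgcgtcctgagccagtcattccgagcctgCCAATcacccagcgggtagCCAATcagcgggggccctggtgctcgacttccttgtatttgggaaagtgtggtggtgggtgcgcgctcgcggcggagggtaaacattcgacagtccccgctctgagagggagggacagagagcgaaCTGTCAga
It held 3 CCAAT matches and 1 MEIS match, which lies after the start. Of the other PAX genes, PAX6, of the eye and forebrain, stood at 5.96, 6.03 and 5.80 in the TDNC1 arrays, against 5.71, 5.77 and 5.80 in the control arrays, a change of 0.17 (SE 0.10, 95% interval -0.06 to 0.40), with the lowest TDNC1 array only just above the highest control array. PAX3, a neural crest gene, had a change of 0.08 and PAX8, the thyroid and kidney gene, of 0.01, which turned to -0.10 without TDNC1 replicate 3; the 8 PAX genes together ran from -0.10 to 0.41.

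Of the 16 POU members, 10 had values above 0 and 6 below. POU3F2, a neuronal POU factor, stood at 7.81, 7.99 and 7.56 in the TDNC1 arrays, against 7.41, 7.60 and 7.83 in the control arrays, a change of 0.17 (SE 0.15, 95% interval -0.19 to 0.53), and 0.29 without TDNC1 replicate 3. POU5F1, the pluripotency factor OCT4, had 0.18 (SE 0.20, 95% interval -0.29 to 0.65) and, without that array, 0.30, and its near copies POU5F1B, POU5F1P3 and POU5F1P4 had -0.21, -0.20 and 0.20. These genes share long stretches of sequence, so probes may not tell them apart. POU1F1, POU3F4 and POU5F1B were the 3 members whose mean lay below the lower quartile of all row means (3.81), among the dimmest rows of the array.

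**Figure D3:**
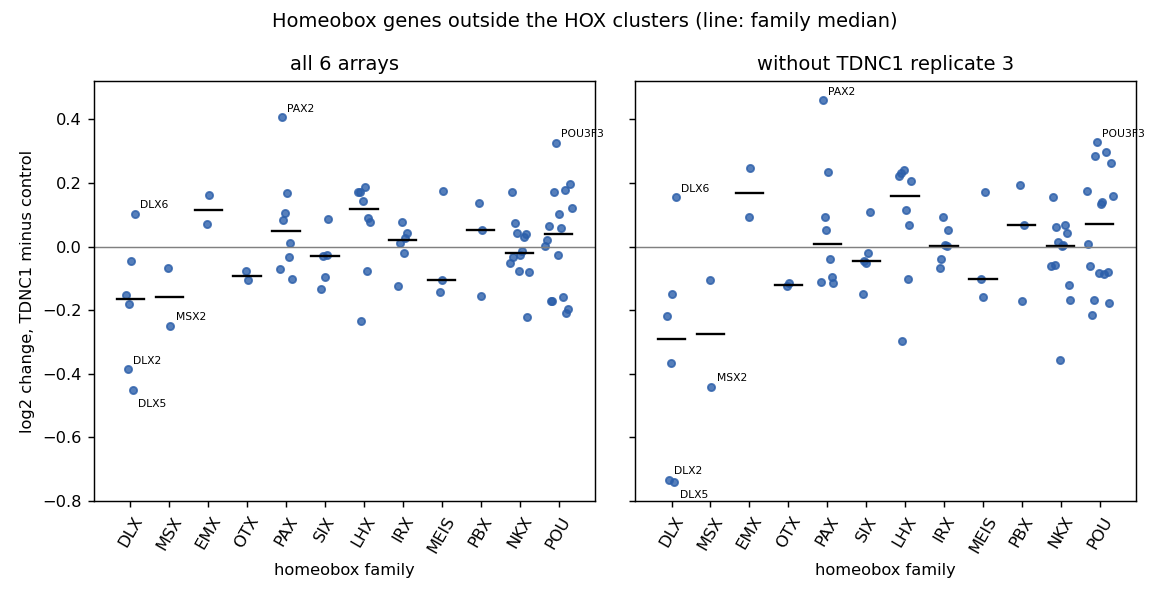
Log2 change, TDNC1 minus control, of the 73 homeobox genes outside the HOX clusters by family, over all 6 arrays (left) and without TDNC1 replicate 3 (right); each point is a gene and each line the family median. DLX2 and DLX5 lie lowest and PAX2 highest in the right panel, at -0.73, -0.74 and 0.46.

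The HOX partner families held small values. Of the MEIS genes, MEIS3 stood at 5.50, 5.32 and 5.42 in the TDNC1 arrays, against 5.20, 5.27 and 5.23 in the control arrays, a change of 0.18 (SE 0.09, 95% interval -0.04 to 0.39) with no overlap between the groups, while MEIS1 and MEIS2 had -0.14 and -0.11. The second, dimmer row of MEIS2 had 0.11, the opposite sign. PBX3 stood at 6.18, 6.33 and 6.30 in the TDNC1 arrays, against 6.41, 6.41 and 6.46 in the control arrays, a change of -0.16 (SE 0.09, 95% interval -0.36 to 0.05), again without overlap. PBX2 had 0.14 on its brightest row; its 6 rows ran from 0.12 to 0.14, and some of them hold identical values. PBX4 had 0.05. Thus members of the same cofactor family stood on both sides of 0.

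In the LIM-homeodomain family, 6 of 8 LHX genes had values above 0 and the family median was 0.12. LHX5, a forebrain gene, stood at 3.97, 4.14 and 4.27 in the TDNC1 arrays, against 3.91, 3.94 and 3.97 in the control arrays, a change of 0.19 (SE 0.10, 95% interval -0.06 to 0.43). LHX3, of the pituitary and motor neurons, stood at 7.45, 6.91 and 7.37 in the TDNC1 arrays, against 7.33, 7.68 and 7.43 in the control arrays, a change of -0.23 (SE 0.17, 95% interval -0.63 to 0.17). LHX1, which is needed for the early kidney, had 0.17 (SE 0.12, 95% interval -0.12 to 0.46). The EMX genes of the cortex and urogenital tract, EMX1 and EMX2, had 0.07 and 0.16, and 0.09 and 0.25 without TDNC1 replicate 3. OTX1 and OTX2, of the forebrain and midbrain, had -0.08 and -0.11.

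SIX2 to SIX6, the IRX genes and the NKX genes held small values too. The 5 sine oculis genes ran from -0.13 to 0.09. SIX2, which maintains nephron progenitors, stood at 6.57, 6.65 and 6.66 in the TDNC1 arrays, against 6.68, 6.85 and 6.75 in the control arrays, just without overlap, and SIX4 had -0.10. The 6 IRX genes ran from -0.12 to 0.08, and IRX3 stood at 8.17, 8.31 and 8.19 in the TDNC1 arrays, against 8.06, 8.21 and 8.17 in the control arrays. The 12 NKX genes ran from -0.22 to 0.17. NKX6-2, of oligodendrocytes and neural progenitors, stood at 6.85, 7.05 and 6.65 in the TDNC1 arrays, against 7.09, 7.16 and 6.98 in the control arrays, a change of -0.22 (SE 0.12, 95% interval -0.52 to 0.07), and NKX1-2 had -0.05, without overlap, as its control arrays lay within a narrow band. NKX2-5, a heart factor, stood at 6.69, 6.50 and 7.44 in the TDNC1 arrays, against 6.69, 6.79 and 7.38 in the control arrays, with replicate 3 far above the others in both groups. Its change was -0.08, and -0.36 without TDNC1 replicate 3. For NKX2-2 the 2 rows differed, with -0.03 on the brighter row used here and 0.21 on the dimmer one; for NKX2-1 they were 0.17 and -0.04. On their brightest rows, no member of these 3 families had an unadjusted limma p under 0.05 with or without TDNC1 replicate 3; the dimmer NKX2-2 row had one over all arrays (limma, unadjusted p = 0.0454), without overlap.

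**Figure D4:**
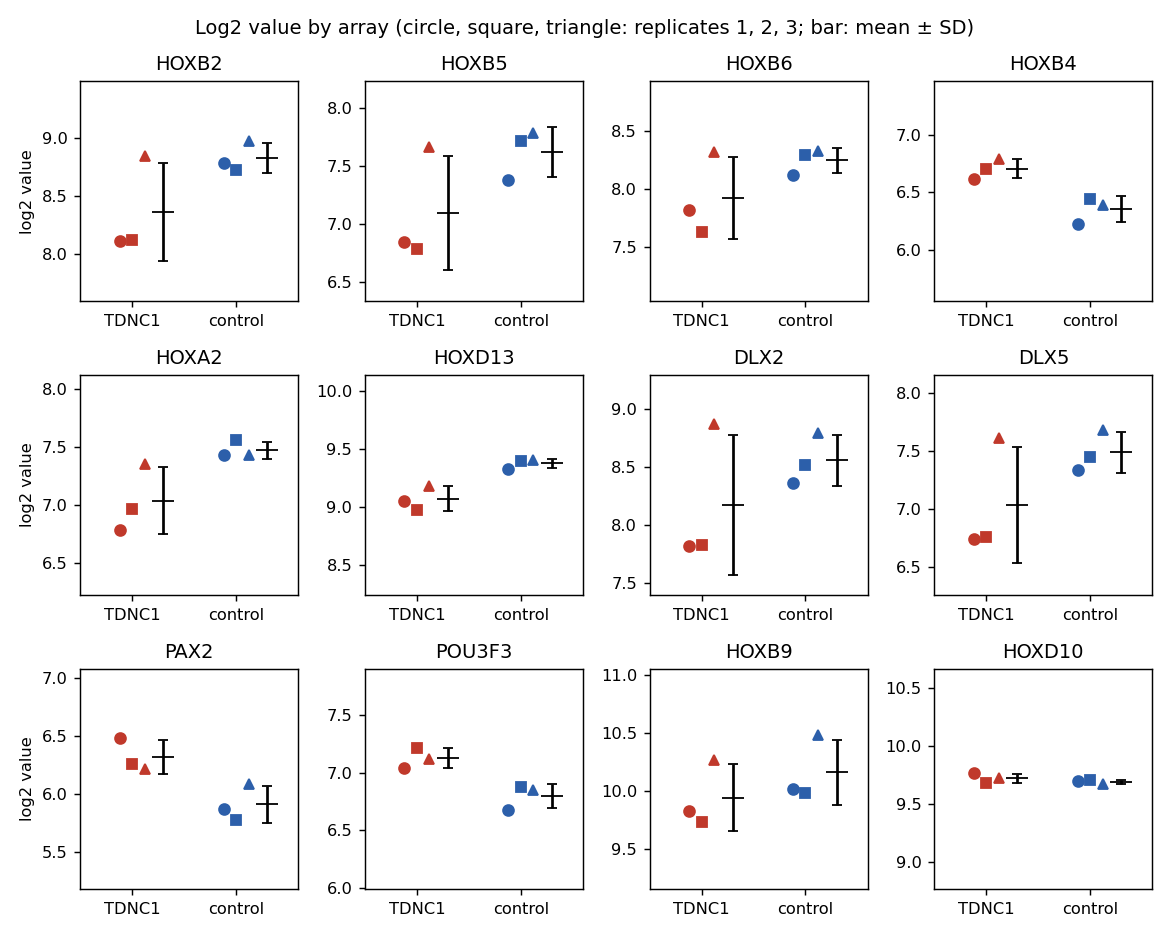
Log2 value by array for 12 homeobox genes, TDNC1 left and control right in each panel, with circles, squares and triangles for replicates 1, 2 and 3 and bars for the mean ± SD; all panels span the same range of log2 units. The triangle of TDNC1 lies up among the controls for HOXB2, HOXB5, HOXB6 and DLX5 and just above them for DLX2. It lies with its own group for HOXB4, HOXD13, PAX2 and POU3F3.

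Genes that act on or with the HOX clusters were taken from lists written with earlier results of these data known. Those called measured are the ones whose symbol a row bears, and unnamed rows may report on others. Counts of list genes at an unadjusted limma p under 0.05 are to be read beside those of all rows and of symbols. With all arrays, 3.96% of rows and 2.56% of symbols were lower, and 3.74% and 4.59% higher. Without TDNC1 replicate 3, 7.62% of rows and 7.46% of symbols were lower, and 6.87% and 10.1% higher. The lists hold 1 row per symbol, so the symbol shares are the closer match, while the backgrounds repeated below are of rows. Retinoic acid switches on HOX genes from the head end of each cluster, and 4 of 18 genes of its handling were measured. CRABP2, the protein that carries retinoic acid to its nuclear receptor, stood at 8.61, 8.51 and 8.17 in the TDNC1 arrays, against 7.35, 7.52 and 7.97 in the control arrays, a log2 change of 0.81 (SE 0.19, 95% interval 0.37 to 1.26). All TDNC1 arrays lay above all control arrays, but the gene did not pass (limma, unadjusted p = 0.00339, adjusted p = 0.631); its change was 0.95 without TDNC1 replicate 3. STRA6, the retinol transporter, and DHRS3, which reduces retinal, had 0.14 and 0.15. Of the 4 genes, 1 was higher at that level and 0 lower, with all arrays (background 3.74% and 3.96% of rows) and without TDNC1 replicate 3 (background 6.87% and 7.62%), and the median change was 0.15.

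Polycomb proteins hold HOX clusters silent, and 14 of 20 listed were measured. At an unadjusted limma p under 0.05, 1 was higher and 1 lower (background 3.74% and 3.96% of rows), and 2 were higher and 2 lower without TDNC1 replicate 3 (background 6.87% and 7.62%). PCGF2, also called MEL18, stood at 8.35, 8.38 and 8.51 in the TDNC1 arrays, against 8.69, 8.67 and 8.77 in the control arrays, a change of -0.30 (SE 0.09, 95% interval -0.51 to -0.08). RBBP7, a histone-binding subunit, stood at 10.27, 10.30 and 10.01 in the TDNC1 arrays, against 9.98, 9.83 and 9.97 in the control arrays, a change of 0.27 (SE 0.11, 95% interval 0.0034 to 0.53). CBX6, a reader of the Polycomb mark, stood at 7.74, 7.54 and 8.85 in the TDNC1 arrays, against 8.70, 8.84 and 8.74 in the control arrays, and so shared with HOXB5 and DLX5 a TDNC1 replicate 3 at the level of the controls. Its change was -0.72, or -1.12 without that array. EZH1, an enzyme that writes the Polycomb mark, had 0.14, and 0.31 without it. Of the Trithorax and MLL group, which keeps HOX genes active, 10 of 15 were measured and 0 had an unadjusted limma p under 0.05 with all arrays (background 3.96% lower and 3.74% higher). Without TDNC1 replicate 3, 1 was lower and 2 were higher (background 7.62% and 6.87%). MEN1, the menin gene, stood at 8.37, 8.45 and 9.22 in the TDNC1 arrays, against 8.91, 9.02 and 9.16 in the control arrays, again with TDNC1 replicates 1 and 2 lowest. Its change was -0.35, and -0.62 without TDNC1 replicate 3. KMT2B, a histone methyltransferase, had 0.21, and 0.40 without that array. PSIP1, which tethers MLL complexes to chromatin, had 0.22 and 0.31, and the core subunit WDR5 0.14 and 0.17.

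Noncoding RNAs of the HOX clusters gave 15 measured of 28 listed, with a median change of -0.05. At an unadjusted limma p under 0.05, 1 was lower and 1 higher (background 3.96% and 3.74% of rows). Without TDNC1 replicate 3, 5 were lower (HOXA11-AS, HOXA-AS3, HOXA10-AS, MIR196B and HOXD-AS2) and 1, HOTAIR, was higher (background 7.62% and 6.87%). HOXA11-AS, antisense to HOXA11, stood at 7.14, 7.01 and 7.68 in the TDNC1 arrays, against 7.60, 7.71 and 7.79 in the control arrays, a change of -0.42 (SE 0.18, 95% interval -0.84 to -0.00043). HOXA10-AS stood at 7.11, 7.15 and 7.42 in the TDNC1 arrays, against 7.44, 7.43 and 7.67 in the control arrays, without overlap, a change of -0.28 (SE 0.13, 95% interval -0.58 to 0.01). HOXA-AS3, from the middle of the cluster, stood at 6.51, 6.46 and 7.08 in the TDNC1 arrays, against 6.87, 7.19 and 7.19 in the control arrays, a change of -0.40 (SE 0.19, 95% interval -0.84 to 0.04). These 3 noncoding rows, like HOXA2, had their lowest values in TDNC1 replicates 1 and 2. Their changes without TDNC1 replicate 3 were -0.62 for HOXA11-AS, -0.38 for HOXA10-AS and -0.60 for HOXA-AS3. HOTTIP, also of the HOXA cluster, did not share this pattern. It stood at 5.51, 6.01 and 5.35 in the TDNC1 arrays, against 5.69, 5.70 and 5.77 in the control arrays. The change of HOTTIP was -0.09, and 0.04 without TDNC1 replicate 3. The precursor row of MIR196A2, in the HOXC cluster, stood at 4.89, 5.36 and 5.12 in the TDNC1 arrays, against 4.71, 4.64 and 4.92 in the control arrays, a change of 0.37 (SE 0.14, 95% interval 0.03 to 0.71), with TDNC1 replicate 1 just under control replicate 3. That of MIR196B, in the HOXA cluster, stood at 7.30, 7.18 and 8.03 in the TDNC1 arrays, against 7.46, 7.84 and 8.05 in the control arrays, a change of -0.28 (SE 0.25, 95% interval -0.88 to 0.31), and that of MIR196A1, in the HOXB cluster, had -0.05. The values without TDNC1 replicate 3 were 0.37 for MIR196A2, -0.55 for MIR196B and 0.16 for MIR196A1, so that MIR196A1 turned in sign.

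The miR-196 microRNAs are known to repress HOX messenger RNAs, HOXB8 among them, and their mature sequences are shown because all 3 genes give the same seed (RefSeq, GRCh38.p14, 5′ to 3′, bases 2 to 8 in capitals). MIR196A1 on chromosome 17 and MIR196A2 on chromosome 12 give the same mature 5p RNA, and MIR196B lies on chromosome 7.
hsa-miR-196a-5p: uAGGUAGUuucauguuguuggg
hsa-miR-196b-5p: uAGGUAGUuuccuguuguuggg
The only difference between them is A12C, counted from the 5′ end and written from miR-196a to miR-196b, which lies outside the seed. The array rows report the precursor genes and do not measure these mature RNAs. HOXB8 itself stood at 5.26, 5.47 and 5.62 in the TDNC1 arrays, against 5.15, 5.72 and 5.71 in the control arrays, a change of -0.08 (SE 0.18, 95% interval -0.51 to 0.35).

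Of the other genes known to switch on HOX clusters or bind with HOX proteins, 6 of 11 were measured and 0 had an unadjusted limma p under 0.05 with all arrays (background 3.96% lower and 3.74% higher). Leaving out TDNC1 replicate 3 gave 2 lower, CDX2 and PKNOX1, and 0 higher (background 7.62% and 6.87%). CDX1 and CDX2, which act upstream of the central HOX genes, had -0.21 and -0.27, and -0.23 and -0.44 without TDNC1 replicate 3. PKNOX1, also called PREP1 and a partner of PBX, had -0.23, and -0.35 without that array. Of the kidney development genes, 14 of 22 were measured and 0 had an unadjusted limma p under 0.05 with all arrays (background 3.96% lower and 3.74% higher). With TDNC1 replicate 3 left out, GATA3 was lower and EYA1 higher (background 7.62% and 6.87%). EYA1, a partner of the SIX2 protein, stood at 8.53, 8.45 and 8.05 in the TDNC1 arrays, against 8.02, 8.17 and 7.90 in the control arrays, a change of 0.32 (SE 0.15, 95% interval -0.04 to 0.67), and 0.46 without TDNC1 replicate 3. GATA3, a transcription factor of the nephric duct, had -0.17 and -0.35. RET, a receptor of the ureteric bud, had 0.14, and OSR2 -0.19.

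The identity of the cells was read from marker genes. Of 10 HEK293 markers, 5 were measured, that is, a row bears their symbol. VIM, the vimentin gene, averaged 8.67 ± 0.04 in TDNC1 and 8.71 ± 0.04 in the control (SD, n = 3 each); KRT18 averaged 9.23 ± 0.14 in TDNC1 and 9.30 ± 0.03 in the control (SD, n = 3 each) and LIN28B 9.10 ± 0.15 in TDNC1 and 9.14 ± 0.05 in the control (SD, n = 3 each). In these 3 and in KRT8 (log2 change -0.09) the arrays of the groups overlapped, while PAX2, the fifth HEK293 marker, was the one described above with higher values in every TDNC1 array. Of the fibroblast markers 3 of 8 were measured, and DCN and LUM lay below the lower quartile of row means. The summed signal of the list, on a linear scale, ran from 59.1 to 81.7 in TDNC1 and from 66.9 to 80.3 in the control. For blood cell markers (4 of 8 measured) it ran from 401 to 456 in TDNC1 and from 393 to 417 in the control, most of it from CD68, for endothelial markers (4 of 6) from 132 to 143 in TDNC1 and from 122 to 128 in the control and for markers of mature epithelium (4 of 6) from 966 to 1163 in TDNC1 and from 926 to 1157 in the control, mostly from EPCAM. CLDN4 had a change of 0.26 (SE 0.11, 95% interval 0.00055 to 0.52), the 1 marker outside the HEK293 list with an unadjusted p under 0.05 (limma, unadjusted p = 0.0496). The ranges overlapped between the groups for the fibroblast, blood and epithelial lists but not for the endothelial list, whose highest member ERG had 0.24. PECAM1, VWF and KDR of that list had 0.04 each, and their means lay below the median of row means (5.17). The part of other cell types in the homeobox values was not tested.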

How the data were processed

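Expression was measured on 6 arrays, 3 from TDNC1 cells and 3 from control cells. The deposited log2 values had been made by the submitters with RMA in the Power Tools of Affymetrix, as listed per the submitters' processing notes. RMA corrects background, normalizes arrays by quantiles and summarises the probes of each row; versions, annotation release and genome build are in none of the sources used here. That the scale is log2 was read from the values, which run from 0.79 to 13.85. RMA gives no counts or depth, and probe-level background was not available to test detection; dim rows were judged against the lower quartile of row means (3.81).

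Of 53617 rows, 16098 carry 1 gene symbol in the platform annotation and 37519 are unnamed here. Symbols were checked against RefSeq, and all 100 members were found there by gene ID. A gene with several rows was read from its brightest row over all arrays. All rows were fitted together in limma 3.58.1 (R 4.3.3; lmFit and eBayes, TDNC1 minus control) with Benjamini-Hochberg adjustment over all rows and a threshold of 0.05. The fit was tested on simulated data. Groups were also compared by whether their arrays overlap. No count model applies to these values.

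The members and lists were chosen with earlier results of these data known. The named members are the 15 with the smallest unadjusted p over all arrays and the 15 without TDNC1 replicate 3, the brightest of each HOX cluster and family, and the HOX genes next to a named one, 43 in all; from each pathway list the 3 with the smallest p are named. Members named beyond these to complete a family, and list genes beyond the 3, were chosen after their values were seen. Alternatives left out each array, left out both arrays numbered 3, and used array weights, the replicate number as a block, other variance priors, quantile normalization, median centring, a filter on dim rows and all rows of a symbol. Promoter and microRNA sequences are from RefSeq (GRCh38.p14), 63 members having a promoter entry; motifs were searched on both strands. No coordinates of array rows are given. Human transcripts that share sequence, such as the copies of POU5F1, or that overlap, such as HOXB3 with HOXB4, may share probes.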

Additional observations from a re-analysis of the deposited data

How the results depend on the processing

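No named member had an adjusted p under 0.05 with any setting run; the smallest was 0.105, for HOXB2 without TDNC1 replicate 3. Leaving out each array in turn gave 1 to 23 rows called (23 without TDNC1 replicate 3). Of the 100 members, 1 to 10 were lower at an unadjusted limma p under 0.05 (10 without TDNC1 replicate 3, background 7.62% of rows). Another 2 to 5 were higher (5 without TDNC1 replicate 1). Without both arrays numbered 3, 9 were lower and 5 higher (background 8.09% and 6.9% of rows). With array weights 6 were lower and 5 higher. The share of all rows was not counted for array weights, the replicate block or the loss of any other single array. Member counts from those fits therefore cannot be read against a background. The median over the other 73 members lay between -0.00095 and 0.030 with 1 array left out, and was -0.020 without both arrays numbered 3, -0.010 with array weights, 0.021 after quantile normalization, 0.024 after median centring and 0.0215 over all rows of a symbol. The HOX median stayed below 0 throughout, from -0.16 to -0.04, but these settings are refits of the same arrays. The median over the HOX genes, taken in each array after subtracting each gene's mean over all arrays, had a within-group SD of 0.0976. That is a spread of single arrays, not the error of the median change, which was -0.0938 with all arrays. Over all rows, the deviations of same-numbered arrays were close to uncorrelated (0.0359, -0.0013 and 0.0468 for replicates 1, 2 and 3). In 13 of the 27 HOX genes, though, replicate 3 was the highest array of both groups (background 14.4% of rows). The labels do not state whether the numbers mark pairs. With the replicate numbers as a block, 1 row was called and 5 members were lower and 3 higher. Of the 43 members named by rule, 4 turned in sign; members and list genes named beyond the rule are followed only for the loss of TDNC1 replicate 3. HOXB1 (0.06) ran from -0.037 to 0.15 with 1 array left out, and was -0.079 without both arrays numbered 3 and -0.019 with weights. HOXD9 (0.01) ran from -0.18 to 0.13, and was -0.10 and -0.062 with the same settings. HOXB8 (-0.08) ran from -0.27 to 0.021 and MSX1 (-0.07) from -0.13 to 0.014. The cause of these differences was not tested. With 3 arrays a group, no homeobox change was told apart from the spread between arrays after adjustment over all rows.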
